A study of Mus musculus with 12 samples.

Results

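The Merkel cell lineage genes described here were Sox2, Atoh1, Isl1, Krt8, Krt18, Krt20 and Piezo2, which were chosen by name for their role in that lineage and matched by gene symbol. They are 7 of the 21942 genes listed in at least 1 of the 2 tables of the study, which holds RNA-seq of hair follicle stem cells (HFSCs) from the back skin of C57BL/6J mice. The sort kept cells that were CD34+, EpCAM+ and α6-integrin high but Sca1-, and 12 libraries were made, 3 for each of 4 groups. The control libraries, labelled wildtype, and the Eed iKO libraries, labelled Eed -/-, both came from mice at postnatal day 70. Eed iKO mice carried K15-CrePGR and Eed fl/fl, so that Cre driven by the Krt15 promoter, which is active in the hair follicle bulge, was switched on by RU-486, applied to the back skin at 10 mg/ml for 7 days from day 50. Control mice received ethanol alone, by the methods of the study. The anagen libraries came from wild type mice at postnatal days 28 to 30 and the telogen libraries from wild type mice at days 50 to 52. Control and Eed iKO libraries are described as biological replicates, while the labels tie no library of either table to an animal, so the p-values below measure the spread between these libraries.

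Merkel cells are mechanosensory cells of the skin epithelium that sit in touch domes beside hair follicles and contact sensory nerve endings. They arise from epidermal progenitors, and SOX2, ATOH1 and ISL1 are transcription factors of their specification and maturation, ATOH1 being required for the lineage. The keratins KRT8, KRT18 and KRT20 build their simple epithelial cytoskeleton, and PIEZO2 is the ion channel that opens on touch. In embryonic epidermis, Polycomb repressive complex 2 (PRC2), of which EED is a core subunit, is known to keep Merkel genes silent through the histone mark H3K27me3, and in mammals this mark is often found at promoters rich in CpG dinucleotides. The tables hold RNA values only, so the mark itself was not measured here.

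The promoters of Sox2 and Isl1, the members richest in CpG, are shown beside those of the partner keratins Krt8 and Krt18, which held fewer. Capitals mark CpG. Each run, 5′ to 3′ on the strand of its gene, ends at the RefSeq start site, or before the first base that GENCODE vM21 places in the gene where this lies further upstream. The RefSeq sequences are on GRCm38.p6, at chr3:34649745-34649994 (+) for Sox2, chr13:116309690-116309938 (-) for Isl1, chr15:102004483-102004592 (-) for Krt8 and chr15:102027966-102028179 (+) for Krt18.
Sox2: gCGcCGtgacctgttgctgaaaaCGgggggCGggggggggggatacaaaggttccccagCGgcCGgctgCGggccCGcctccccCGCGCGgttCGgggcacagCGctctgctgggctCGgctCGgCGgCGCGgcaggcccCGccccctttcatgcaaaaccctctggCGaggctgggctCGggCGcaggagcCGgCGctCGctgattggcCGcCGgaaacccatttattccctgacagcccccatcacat
Isl1: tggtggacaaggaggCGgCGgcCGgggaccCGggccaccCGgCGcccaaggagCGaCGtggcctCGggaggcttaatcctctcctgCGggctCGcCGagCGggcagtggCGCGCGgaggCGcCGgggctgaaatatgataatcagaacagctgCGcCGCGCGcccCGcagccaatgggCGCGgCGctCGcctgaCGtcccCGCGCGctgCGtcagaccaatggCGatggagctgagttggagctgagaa
Krt8: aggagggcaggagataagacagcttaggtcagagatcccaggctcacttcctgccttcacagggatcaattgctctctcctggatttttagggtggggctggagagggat
Krt18: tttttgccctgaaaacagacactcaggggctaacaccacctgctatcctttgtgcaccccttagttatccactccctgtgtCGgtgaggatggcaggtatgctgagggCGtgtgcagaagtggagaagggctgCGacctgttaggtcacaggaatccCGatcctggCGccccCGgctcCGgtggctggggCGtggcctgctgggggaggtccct
The Sox2 run held 27 CpG in 250 bases and the Isl1 run 33 in 249. The Krt18 run held 8 in 214 bases, while the 110 bases of Krt8 held 0.

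In windows of 300 bases, from 250 before to 50 after the RefSeq start, which were available for 6 of the 7 members, Isl1 held 37 CpG, Sox2 27, Atoh1 20, Krt18 17, and Krt8 and Krt20 6 each. The median over 32851 such windows was 7, with quartiles of 3 and 20. Isl1 thus had more CpG than 94.4% of the windows, and Krt8 and Krt20 more than 43.6%. The ratio of observed to expected CpG was 1.05 for Isl1, 0.84 for Atoh1, 0.82 for Sox2, 0.60 for Krt18, 0.32 for Krt20 and 0.24 for Krt8. The 3 transcription factor promoters therefore lay above the 3 keratin promoters by both measures. The letters TATAAA, searched on both strands, were found in the windows of Krt8 and Krt20 and in 13.6% of all windows. Counted from the RefSeq start, their first base was at -29 in Krt20 and at -3 and -1 in Krt8, where GENCODE already places the gene. The E-box letters CAGCTG were found in the windows of Isl1, at -103, and Krt8, at 41 after the start, and in 16.3% of all windows. A second E-box, CAGATG, was found in none of the 6 windows and in 17.2% of all.

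**Figure D1:**
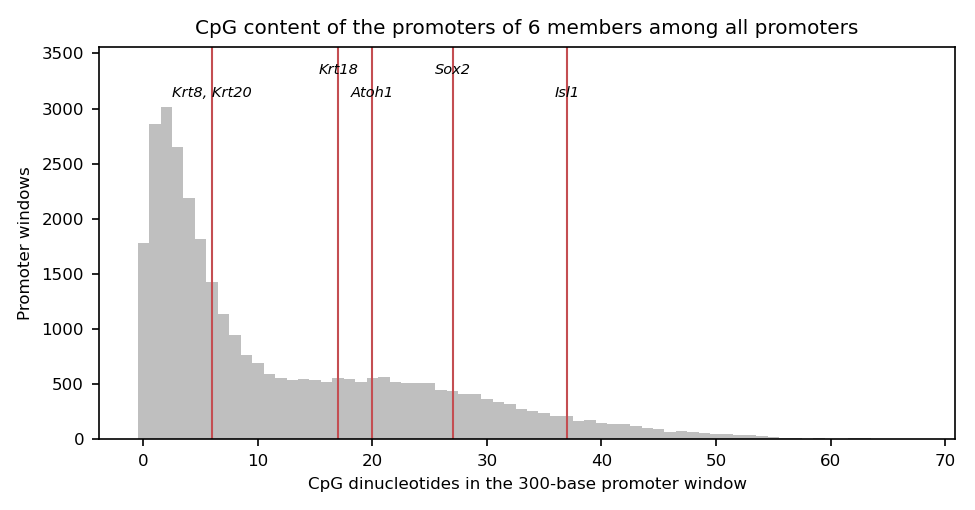
The bars give the number of promoter windows (y axis) at each count of CpG dinucleotides in 300 bases (x axis) over 32851 RefSeq windows, and the red lines mark 6 members. Isl1, at 37 CpG, and Sox2, at 27, lie above the upper quartile of 20, and Krt8 and Krt20, at 6, lie below the median of 7.

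In the annotation (GRCm38, GENCODE vM21), Sox2 (ENSMUSG00000074637.7) lies at chr3:34650405-34652461 on the plus strand, Atoh1 (ENSMUSG00000073043.5) at chr6:64729125-64731245 on the plus strand, Isl1 (ENSMUSG00000042258.13) at chr13:116298281-116309689 on the minus strand and Krt20 (ENSMUSG00000035775.2) at chr11:99428403-99438150 on the minus strand. Krt8 (ENSMUSG00000049382.10, chr15:101996698-102004482, minus strand) and Krt18 (ENSMUSG00000023043.7, chr15:102028180-102032027, plus strand) are head to head, with their starts 23698 bases apart and 0 protein-coding genes between them. Of the 1958 exon bases of Krt8, 101 (5.16%) are shared with Gm36026 on the other strand, and a processed pseudogene, Krt8-ps, is annotated elsewhere. The counting was not stated to use strand, so reads of Krt8 could in part belong to either. Piezo2 (ENSMUSG00000041482.16) lies at chr18:63010213-63387183 on the minus strand, with 15 annotated transcripts.

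The Merkel genes with reads lay below the median gene per kilobase in both tables. Neither Krt8 nor Piezo2, the only members tested in each, changed past the thresholds in either comparison. The thresholds, taken from the methods, were an absolute log2 fold change above 1.5 for Eed iKO, or above 2 for the hair cycle, together with an unadjusted p under 0.05, and 1.75% of the 15008 genes tested for Eed iKO and 5.10% of the 13457 tested for the hair cycle passed them. Sox2, Atoh1 and Krt20 were not listed in the Eed iKO table and were listed at 0 in all 6 libraries of the hair cycle table. Isl1 was at a few reads or none, Krt18 at up to 11.5 normalized counts in any library, Krt8 at up to 62.6 and Piezo2 at up to 227. In these bulk libraries, few cells of a type and little RNA per cell cannot be told apart.

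The values are normalized counts, that is, counts that the authors divided by a size factor of each library, and the 2 tables were normalized separately. From the Eed iKO table whole reads could be recovered, 33269583 to 57063586 per library, at which 3 reads equal 0.0526 to 0.0902 CPM. Reads here means the whole-number counts that the authors' Kallisto run assigned to each gene. For the hair cycle table no depth could be recovered. All 10 markers of bulge stem cells were listed in both tables. The normalized count of Eed, the targeted gene, was 1084, 1249 and 950 in control replicates 1 to 3 and 933, 1361 and 1001 in the libraries labelled Eed iKO. The groups overlapped, and the log2 fold change was -0.01 ± 0.22 (SE, n = 3 per group, limma adjusted p = 0.993), so this value did not set the labelled groups apart. It sums reads over the whole transcript, any part outside the deletion included. Directions below refer to the libraries labelled Eed iKO.

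Among the transcription factors, Isl1 alone had values above 0 in both tables. Its normalized count was 0, 1.08 and 0 in control replicates 1 to 3 and 2.15, 5.31 and 3.95 in Eed iKO replicates 1 to 3. All 3 Eed iKO libraries lay above all 3 control libraries, but these values stand for 1 read in the control libraries together and 10 reads in the Eed iKO libraries together. The ratio of Eed iKO to control reads, scaled by the size factors, was 12.9, with an exact 95% interval of 1.83 to 558 that covers counting error only. Over libraries, the means were 0.361 ± 0.625 and 3.81 ± 1.59 (SD, n = 3), and an exact two-sided permutation test of the difference gave p = 0.1, the smallest that 3 libraries against 3 allow. Isl1 failed the filter on low values. In a fit without that filter, its log2 fold change was 1.85 ± 0.85 (SE), with a 95% interval of -0.03 to 3.74 (limma adjusted p = 0.388).

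For comparison, of the 2877 genes that the filter left out, 4.28% had all Eed iKO libraries above all control libraries and 3.23% the reverse. Of all 17885 genes listed, 195 (1.09%) had at most 1 read in control and at least 10 in Eed iKO, and 198 (1.11%) had the reverse. ISL1 is also a factor of sensory neurons. The summed level of a list of 6 sensory neuron markers, of which 5 were listed, was 20.9 to 63.9 normalized counts in control and 41.9 to 102 in Eed iKO. Most of this sum came from Avil, at 14.6, 39.0 and 4.53 in control and 28.0, 37.2 and 58.3 in Eed iKO (1.42 ± 0.86, limma adjusted p = 0.468), and from Nefm, at 3.47 to 11.8 in control and 1.33 to 34.6 in Eed iKO (0.18 ± 1.16, limma adjusted p = 0.962). Prph was at 0 in 3 of the 6 libraries and at no more than 5.31 in the others, and Nefl at no more than 3.47 in any. Control replicates 1 to 3 held 2.78, 10.8 and 4.53 normalized counts of Scn9a. Eed iKO replicates 1 to 3 held 1.08, 1.33 and 6.92, so the groups overlapped. The means of Scn9a and Nefl were thus lower with Eed iKO, while those of Avil, Nefm and Prph were higher. The part of these markers in the Isl1 values was not tested.

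In the hair cycle table, Isl1 was at 1.27 normalized counts in telogen replicate 3 and listed at 0 in the other 5 libraries. No direction can be read from a single library. Sox2 and Atoh1 were listed at 0 in telogen and anagen alike, as were 4202 (19.2%) of the 21915 genes of that table. The Eed iKO table held no gene at 0 in all its libraries, and whether the members that it did not list had reads there was not tested.

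Krt8, which pairs with KRT18 in simple epithelial filaments, went from no read to its highest values of the table within the control group. Its normalized count was 62.4, 0 and 62.6 in control replicates 1 to 3, from 90, 0 and 69 reads. In Eed iKO it was 15.1, 27.9 and 19.8, from 14, 21 and 20 reads. The Eed iKO libraries thus lay between control replicate 2, with no read, and the other 2 control libraries, and the groups overlapped. The means were 41.7 ± 36.1 and 20.9 ± 6.49 (SD, n = 3). On the log2(normalized count + 1) scale of the test, the log2 fold change was 0.42 ± 1.43 (SE), with a 95% interval of -2.74 to 3.58 (limma adjusted p = 0.922). Its sign was opposite to that of the means and turned with control replicate 2, without which it was -1.58 ± 0.72 (limma adjusted p = 0.414). By reads, the Eed iKO libraries together had 55 and the control libraries 159. Scaled by the size factors, this was a ratio of 0.445 with an exact interval of 0.321 to 0.608 for counting error only. Over libraries, the exact permutation test gave p = 0.4.

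In the hair cycle table, Krt8 was the member with the largest fold change. Its normalized count was 2.90, 27.8 and 5.06 in telogen replicates 1 to 3 and 19.0, 46.4 and 29.2 in anagen replicates 1 to 3. Telogen replicate 2 lay within the range of the anagen libraries, while the other 2 telogen libraries lay below all 3. The means were 11.9 ± 13.8 and 31.5 ± 13.9 (SD, n = 3), and the log2 fold change of anagen over telogen was 1.80 ± 0.83 (SE), with a 95% interval of -0.02 to 3.62 (limma adjusted p = 0.188). Its unadjusted p in the same limma fit was 0.052, so that it passed neither threshold. Without telogen replicate 2 it was 2.65 ± 0.74 (limma adjusted p = 0.051) and passed both thresholds, and without each of the other libraries in turn it stayed between 1.21 and 2.11 and never passed both. Of a list of 5 inner root sheath and hair shaft markers, 3 were higher in anagen past the thresholds and 2 were not, and the summed level of the 5 was 590 to 1115 normalized counts in the telogen libraries and 1331 to 2614 in the anagen libraries. By the means, the largest part of this sum was Gata3, at 724 ± 295 in telogen and 952 ± 388 in anagen (0.38 ± 0.35, limma adjusted p = 0.526). Tchh was next, at 73.5 ± 39.9 and 634 ± 325 (3.07 ± 0.48, limma adjusted p = 0.003). The part of these markers in the Krt8 values was not tested.

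Krt18, the partner of Krt8, failed the filter in both tables. Its normalized count was 0.694, 8.67 and 5.44 in control and 4.30, 0 and 1.98 in Eed iKO, from 15 and 6 reads in all. It was 11.5, 8.89 and 3.79 in telogen and 8.70, 3.57 and 6.29 in anagen. The groups overlapped in both tables. Without the filter, the log2 fold change was -0.91 ± 1.02 (SE) for Eed iKO over control (limma adjusted p = 0.753) and -0.29 ± 0.73 for anagen over telogen (limma adjusted p = 0.841).

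Although their genes are neighbours, the keratin partners did not keep 1 ratio. Per kilobase of the longest transcript, Krt8 was 66.1 times Krt18 in control replicate 1 and 8.44 times in control replicate 3, while control replicate 2 had Krt18 with no read of Krt8. In Eed iKO the ratio was 2.57 and 7.34 in replicates 1 and 3, and replicate 2 had Krt8 with no read of Krt18. In telogen it was 0.184, 2.29 and 0.979, and in anagen 1.60, 9.55 and 3.41. Most of these ratios rest on fewer than 10 normalized counts of Krt18. Krt20, the keratin most particular to Merkel cells among the 3, was not listed in the Eed iKO table and listed at 0 throughout the hair cycle table.

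**Figure D2:**
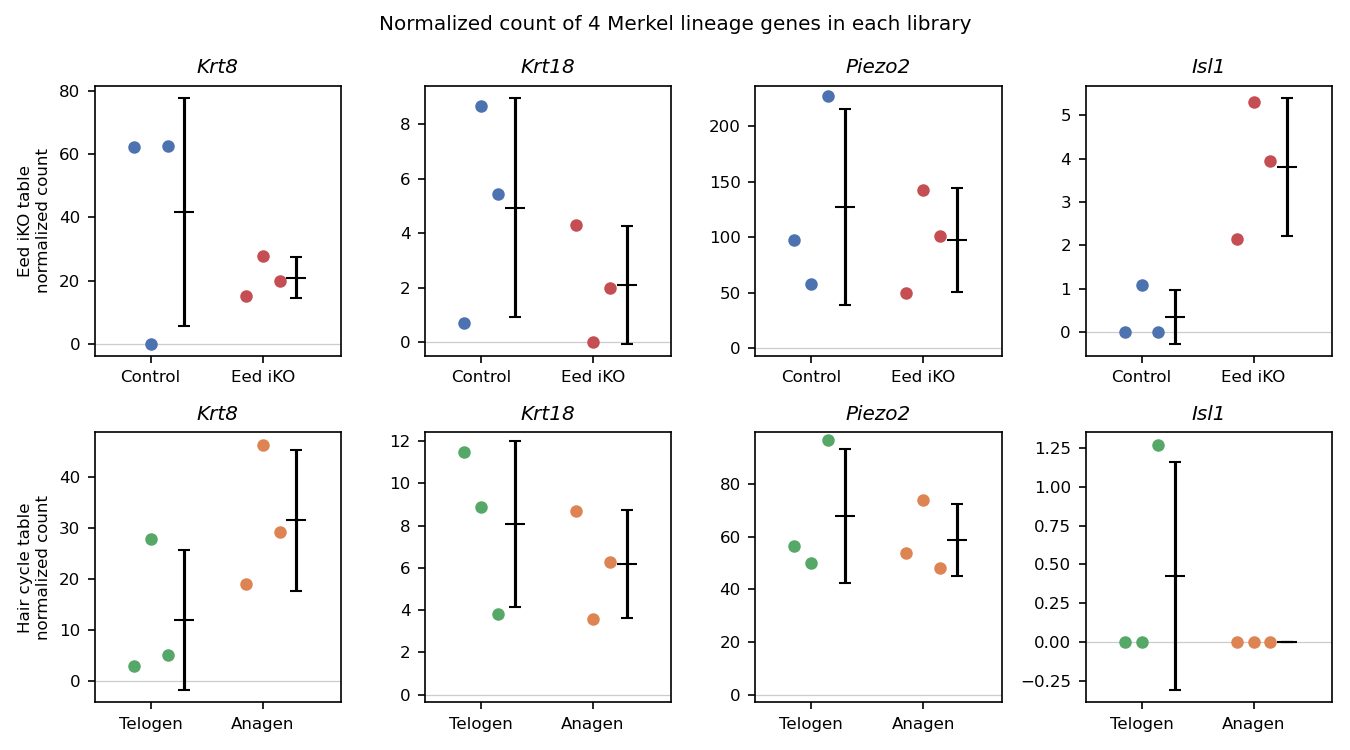
Points give the normalized count (y axis, linear) of Krt8, Krt18, Piezo2 and Isl1 in each library, with the Eed iKO table above and the hair cycle table below. The bars give the mean ± SD of 3 libraries, and only the groups of Isl1 in the Eed iKO table do not overlap.

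Piezo2, the touch channel, was the only member other than Krt8 to pass the filter in either table, and it did so in both. Its normalized count was 97.8, 57.4 and 227 in control and 49.5, 143 and 101 in Eed iKO, from 444 and 256 reads in all. Control replicate 3 was the highest library and Eed iKO replicate 1 the lowest, with the other 4 between them in mixed order. The means were 127 ± 88.4 and 97.9 ± 47.1 (SD, n = 3), and the log2 fold change was -0.27 ± 0.62 (SE), with a 95% interval of -1.65 to 1.10 (limma adjusted p = 0.875). The interval reached past the threshold of 1.5 on the lower side. The sign turned without control replicate 3 (0.25) and without Eed iKO replicate 1 (0.15).

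In the hair cycle table, Piezo2 was at 56.6, 50.0 and 96.9 (telogen) and at 53.9, 74.0 and 48.2 (anagen) normalized counts. Telogen replicate 3 stood above the other 5 libraries, which lay between 48.2 and 74.0. The means were 67.9 ± 25.4 and 58.7 ± 13.6 (SD, n = 3), and the log2 fold change was -0.17 ± 0.46 (SE), with a 95% interval of -1.18 to 0.85 (limma adjusted p = 0.846). This interval lay within the threshold of 2 in both directions. Without telogen replicate 3 the value was 0.12.

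Of the 7 members, 2 were thus tested in each table and 0 passed the thresholds in either, beside the 1.75% and 5.10% of genes given above. At an adjusted p under 0.05 the count of members was again 0 in both, beside 0.0267% and 11.6% of genes, and 0 of the 2 had an unadjusted p under 0.05, beside 14.7% and 27.3%. The groups of libraries did not overlap for 0 of the 2 in each table, beside 20.2% and 33.3% of the genes tested. By edgeR and DESeq2 on the recovered reads of the Eed iKO table, after the same filter, 0 members passed the thresholds as well. With 2 genes tested, a count of 0 is near what the background gives.

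Compared per kilobase, as levels of different genes must be, the order in the Eed iKO table was Krt8, Piezo2, Krt18 and Isl1, with means over 6 libraries of 16.0, 10.5, 2.44 and 0.828 normalized counts per kilobase. Of 17879 genes, 27.9% were lower than Krt8, 24.0% lower than Piezo2, 11.4% lower than Krt18 and 5.16% lower than Isl1. In the control group Krt8 (21.3 ± 18.4) and Piezo2 (11.9 ± 8.24) did not differ beyond their spread, nor did they in Eed iKO (10.7 ± 3.32 and 9.13 ± 4.39), while Krt18 (0.483 to 6.03 in control, 0 to 2.99 in Eed iKO) was below both in the means. For scale, Krt15, a keratin of the bulge, was at 338237 normalized counts per kilobase in control.

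The order was the same in the hair cycle table, with 11.1 for Krt8, 5.90 for Piezo2, 4.96 for Krt18 and 0.0839 for Isl1. Krt8, Piezo2 and Krt18 were higher than 47.8%, 42.7% and 41.3% of 21915 genes, of which 19.2% were at 0 in every library. In telogen the 3 genes did not differ beyond their spread, with Piezo2 at 6.33 ± 2.37, Krt8 at 6.09 ± 7.04 and Krt18 at 5.62 ± 2.74. In anagen Krt8 stood at 16.1 ± 7.09, above Piezo2 (5.48 ± 1.26) and Krt18 (4.30 ± 1.79), which did not differ beyond their spread.

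**Figure D3:**
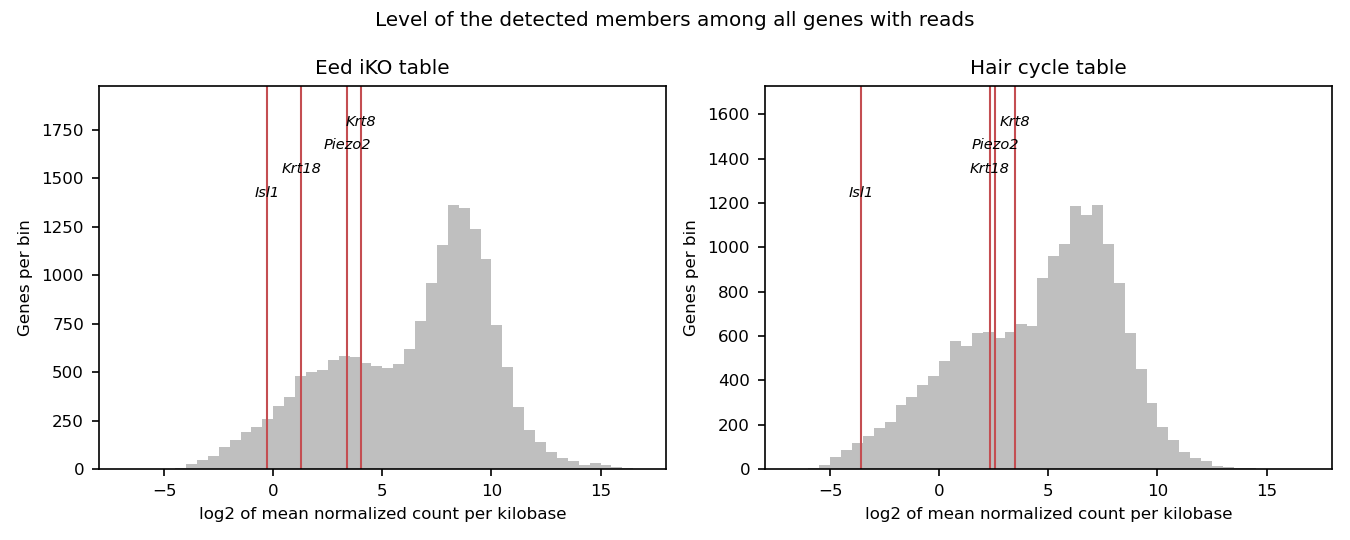
Grey bars give the number of genes (y axis) by the log2 of their mean normalized count per kilobase over 6 libraries (x axis), for genes above 0 in each table. Red lines mark Isl1, Krt18, Piezo2 and Krt8, all left of the main peak of expressed genes in both tables.

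The 3 genes whose values across the 6 libraries were most like those of each tested member are given here, and none was another Merkel gene. For Krt8 these were Cbx8 (Pearson r = 0.993), Zfp281 (0.989) and Slc35e1 (0.986) in the Eed iKO table, and Csnk2b (0.998), Golga3 (0.996) and Mfsd4a (0.995) in the hair cycle table. For Piezo2 they were Plod3 (0.991), Cd164l2 (0.984) and Sirt3 (0.982) in the Eed iKO table, and Vmn2r31 (0.985), Ino80e (0.980) and Spata6 (0.975) in the hair cycle table. Each is the top 3 of 15007 or 13456 genes on log2(normalized count + 1) over 6 libraries, which share the depth of each library, and the lists of the 2 tables have no gene in common. With few Merkel genes tested, a top 3 of so many genes cannot show whether Merkel genes varied together. In the Eed iKO table, Krt8 had no read in control replicate 2 alone, so its r values there lean heavily on that library.

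A wider list of 19 Merkel genes (transcription factors, secretory and synaptic proteins, peptides and neuronal-type markers) was read beside the members. In the Eed iKO table, 16 were listed, 7 passed the filter and 0 passed the thresholds, with a median log2 fold change of -0.20 against -0.001 over all genes tested. The 3 with the highest normalized counts, not divided by length, were Vamp2, a synaptic vesicle protein, at 7074 ± 557 in control and 5392 ± 239 in Eed iKO (log2 fold change -0.39 ± 0.13, limma adjusted p = 0.207), Cplx2 at 243 ± 15.7 and 221 ± 60.6 (-0.17 ± 0.35, adjusted p = 0.864), and Eno2, a neuronal-type enolase, at 206 ± 21.6 and 171 ± 45.3 (-0.30 ± 0.38, adjusted p = 0.764). Gfi1, a factor downstream of ATOH1, had 0 reads in all control libraries and 11, 8 and 0 reads in Eed iKO replicates 1 to 3. It was named after its values were seen. An exact permutation test of its library values gave p = 0.4. Of all genes listed, 1.09% had at most 1 read in control and at least 10 in Eed iKO, and 1.11% had the reverse. Other low genes of the list, which like Gfi1 failed the filter and were not tested, went either way. From control to Eed iKO, the mean of Scg3 went from 43.8 ± 72.7 to 0.330 ± 0.571 and that of Tph1 from 19.3 ± 15.2 to 6.54 ± 2.40. That of Chgb went from 0.302 ± 0.523 to 5.20 ± 4.88 (SD, n = 3), and all of these groups overlapped.

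In the hair cycle table all 19 were listed, and 5 of them (Gfi1, Pou4f3, Snap25, Npy and Uchl1) were at 0 in every library. Of the 7 that passed the filter, 0 passed the thresholds, and their median log2 fold change was -0.61 against 0.013 over all genes tested. Vamp2 alone, 1 of the 7, had an adjusted p under 0.05, beside 11.6% of all genes tested. Its normalized count was 769, 996 and 1091 in the telogen libraries and 274, 333 and 503 in the anagen libraries, so that all anagen libraries lay below all telogen libraries. Its log2 fold change was -1.39 ± 0.28 (SE, limma adjusted p = 0.009), and without anagen replicate 1 the adjusted p was 0.056. Cplx2 (-0.41 ± 0.54, limma adjusted p = 0.661) and Rab3c (-0.61 ± 0.63, adjusted p = 0.569), next by normalized count, did not pass.

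**Figure D4:**
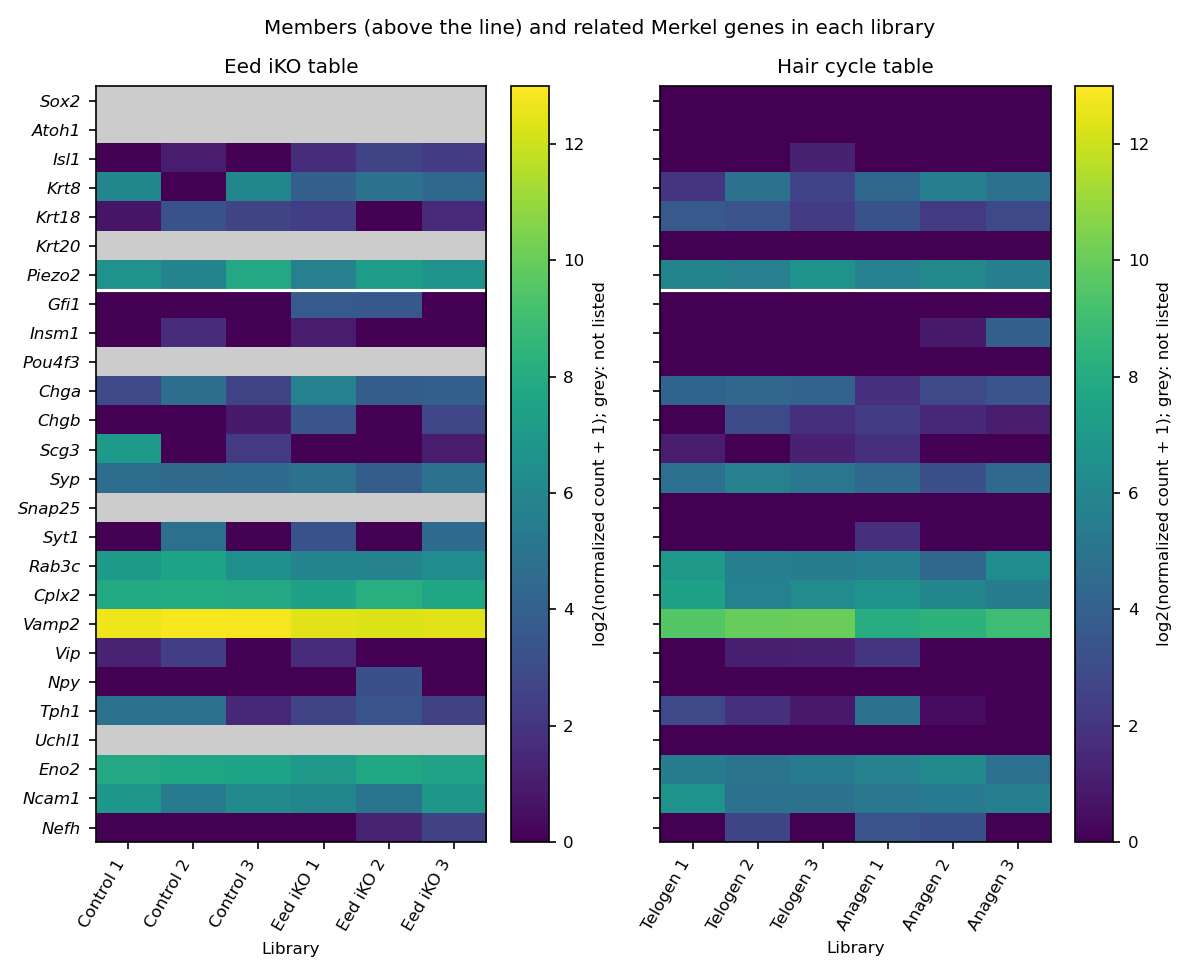
Colour gives log2(normalized count + 1) of the 7 members (above the white line) and 19 related Merkel genes (rows) in each library (columns), with genes that a table does not list in grey. Sox2, Atoh1 and Krt20 are grey on the left and at 0 on the right, and Vamp2 is the brightest row in both tables, in values not divided by length.

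Of the 2 other simple keratins, both tested in each table, Krt7 passed the thresholds in the hair cycle with a direction opposite to that of the Krt8 value. It was at 37.3, 291 and 39.8 in telogen, and at 12.1, 9.91 and 33.0 in anagen (-2.19 ± 0.81, limma adjusted p = 0.110), and without telogen replicate 2, the library that was also high in Krt8, it was -1.22 and passed neither threshold. Krt19 did not pass (1.42 ± 1.23, limma adjusted p = 0.493). For Eed iKO over control, Krt7 (0.23 ± 0.50) and Krt19 (-0.27 ± 0.73) were past no threshold.

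Hedgehog and EDAR signalling act before ATOH1 in Merkel specification. Of 6 such genes, 5 were tested in each table. For anagen over telogen, Ptch1, the Hedgehog receptor and a target of the pathway, passed the thresholds, from 1670 ± 180 to 7070 ± 1384 (2.07 ± 0.20, limma adjusted p = 1.3e-04). It fell to 1.98, under the threshold of 2, without telogen replicate 3, anagen replicate 1 or anagen replicate 2, and was higher in all anagen libraries than in all telogen libraries. Gli1 (1.49 ± 0.41, limma adjusted p = 0.039) and Gli2 (0.74 ± 0.21, adjusted p = 0.047) passed at the adjusted p. For Eed iKO over control, 0 of the 5 passed. Edar had 0 reads in control and 28, 0 and 5 reads in Eed iKO replicates 1 to 3 (exact permutation p = 0.4), named after its values were seen. Of 6 Polycomb genes, all tested in each table, 0 passed the thresholds in either comparison. For Eed iKO, the 3 with the highest normalized counts were Ezh1 (-0.22 ± 0.15), Suz12 (0.10 ± 0.17) and Rnf2 (0.49 ± 0.16), and their limma adjusted p was 0.516, 0.826 and 0.200. Cell type markers were counted in 11 lists. For Eed iKO, 1 gene each of the melanocyte (Tyrp1), immune (Cd207) and inner root sheath (Krt27) lists was higher past the thresholds, and the other 8 lists held none. These lists were mixed, with positive values for 3 of the 4 melanocyte, 3 of the 5 immune and 2 of the 5 inner root sheath genes tested. The groups of Krt27 overlapped. For anagen, Dct of the melanocyte list, Col1a1 and Dcn of the fibroblast list, and Krt25, Krt27 and Tchh of the inner root sheath list were higher past the thresholds, and the other 8 lists held none. The fibroblast list was mixed, since Col1a2 (-1.00 ± 0.37, limma adjusted p = 0.108) and Pdgfra (-1.02 ± 1.09, limma adjusted p = 0.586) had negative values.

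**Figure D5:**
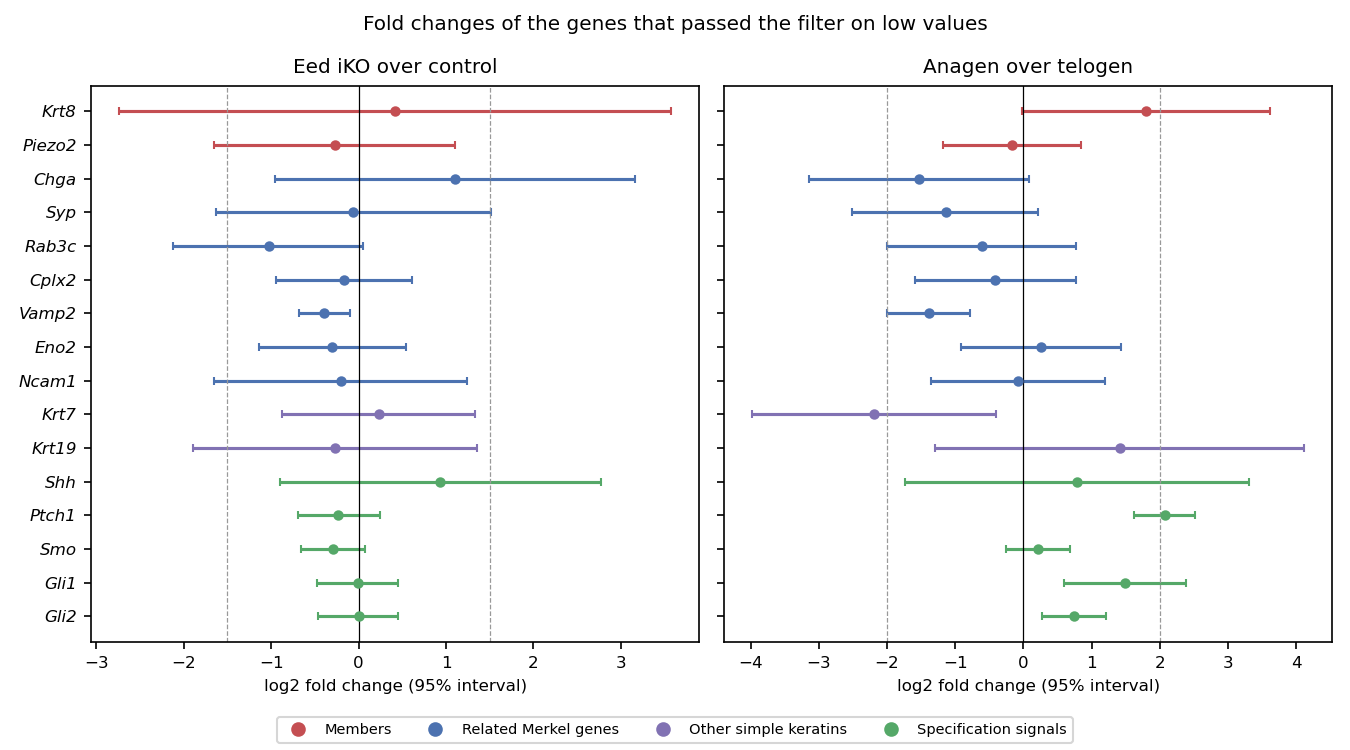
Points give the log2 fold change (x axis) of Eed iKO over control (left) and anagen over telogen (right) for the genes (rows) that passed the filter on low values, with 95% intervals from limma, and dashed lines mark the thresholds of 1.5 and 2. The intervals of Krt8 and Piezo2 span 0 in both panels, and those of Ptch1 and Vamp2 in anagen over telogen do not.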

How the data were processed

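Total RNA of FACS-purified HFSCs was amplified with the Ovation RNA-seq System V2 and sequenced in 12 libraries. The authors aligned reads to Gencode vM20 transcripts with Kallisto (v0.42.5) and ran DESeq2. For each library, the deposited signal of a gene is its count over the DESeq2 size factor. The deposited log2 fold changes and standard errors, the Wald score and each deposited p-value hold the authors' own comparisons and were not used. TPM values were not used here.

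Within the Eed iKO table, 100% of the values were whole multiples of 1 constant per library (within 0.01), so that reads were recovered; of the hair cycle values, 27.9 to 34.1% were whole and the depth stayed unknown. Intervals on reads cover counting error only. Each table was fitted on its own with limma 3.58.1 (R 4.3.3) on log2(value + 1) with an intensity trend, after filterByExpr at a count minimum of 10, and p-values were adjusted by Benjamini and Hochberg over all genes tested. A fold change on this scale understates that of low genes. edgeR 4.0.16 and DESeq2 1.42.0 were run on recovered reads as alternatives, and the functions were tested on simulated data. Lengths and coordinates came from GENCODE vM21 (GRCm38), promoters from RefSeq (GRCm38.p6). Levels of different members were compared per kilobase of the longest transcript.

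The genes named were the 7 members, Eed, every gene of the related Merkel, Polycomb and cell type marker lists past the thresholds, otherwise the 3 of the related Merkel and Polycomb lists with the highest normalized counts, and the 3 genes most correlated with each tested member. The other simple keratins, the signal genes, Gfi1, Scg3, Tph1, Chgb, Chga, Syp and the markers given beside a member were named after their values were seen. So was Rab3c for Eed iKO. The members and lists were chosen with earlier results of these data known. A few genes that these lists could hold are not reported here, and no list count includes them. Cell type marker lists of 11 cell types were read beside the results.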

Additional observations from a re-analysis of the deposited data

How the results depend on the processing

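The count of members past the thresholds was 0 for Eed iKO under every alternative run: no filter on low values, a pseudocount of 0.1, TMM scaling, no intensity trend, edgeR or DESeq2 on recovered reads, adjusted p, and each library left out in turn. All of these runs but the first kept the filter, which Isl1 and Krt18 failed in the main fit. The 0 therefore speaks mainly for Krt8 and Piezo2. Without the filter, Isl1 was at 1.85, above 1.5, with an unadjusted limma p of 0.053. For the hair cycle the count of members was 0 to 1 with a library left out, the 1 being Krt8 (2.65) without telogen replicate 2. Related Merkel genes past the thresholds stayed at 0, and 1 (Vamp2) passed at an adjusted p under 0.05 in the hair cycle, beside 11.6% of all genes tested. The value of Krt8 for Eed iKO ranged from -1.58 to 1.42 with a library left out, turning without control replicate 2, and was -1.00 by edgeR and by DESeq2. That of Piezo2 ranged from -0.73 to 0.25, turning without control replicate 3 (0.25) or Eed iKO replicate 1 (0.15), and in the hair cycle from -0.35 to 0.12, turning without telogen replicate 3. The value of Eed ranged from -0.17 to 0.10 and turned to 0.09, 0.10 and 0.05 without control replicate 2, Eed iKO replicate 1 or Eed iKO replicate 3, and to 0.00 by edgeR and DESeq2. That of Cplx2 in the hair cycle ranged from -0.80 to 0.08, turning without telogen replicate 1. The cause was not tested. Ptch1 was at 1.98, under the threshold of 2, without telogen replicate 3, anagen replicate 1 or anagen replicate 2, and Krt7 at -2.00 and -1.87 without anagen replicate 1 or 2.

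Same-numbered libraries deviated together with r of 0.039, 0.068 and 0.193 in the Eed iKO table and -0.035, -0.071 and -0.029 in the hair cycle table. Control replicates 2 and 3 were most like the Eed iKO library of their own number, and control replicate 1 was not. No telogen library was most like the anagen library of its own number. The main fit did not take the numbers as pairs, and these values do not settle whether the Eed iKO table was paired. With the replicate number as a block, 0 members and 0 related genes passed the thresholds in either comparison, while over all genes 331 in place of 263 passed for Eed iKO and 696 in place of 686 for the hair cycle. At an adjusted p under 0.05, Eed iKO gave 4 genes, 424 with the block and 673 by DESeq2, and the hair cycle 1556, 1224 with the block and 842 without an intensity trend. Without the filter, 425 genes passed the thresholds for Eed iKO, and with a library left out 217 to 449, the most without control replicate 3 (410) and Eed iKO replicate 3 (449). At an adjusted p these ranges were 1 to 188 for Eed iKO, the 188 without Eed iKO replicate 3 and the 1 without each other library, and 590 to 1534 for the hair cycle, with 590, 675 and 826 without anagen replicates 1, 2 and 3.

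With 3 libraries per group, 5 of the 7 members in each table were below the filter or not listed, and the intervals of those tested span 0. Isl1 and Krt18 rest on 11 and 21 reads in the Eed iKO table, which limits what can be read from their values.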
